A study of Homo sapiens with 8 samples.

Results

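Lysosome and autophagy genes were examined in the transcriptome of BT-549, an established triple negative breast cancer (TNBC) cell line. The set held 47 genes, found by their symbols among the 23228 genes that each deposited count list names. They were chosen for their known role, with earlier results of these data known. It covered 3 transcription factors of the TFEB family, 8 lysosomal proteases, 7 glycosidases and 3 genes of sphingolipid breakdown. It also covered 5 lysosomal membrane proteins and channels, 3 subunits of the V-ATPase, 3 autophagy receptors, 4 genes of the ATG8 family, 5 genes of autophagy initiation and nucleation and 6 genes of ATG8 conjugation. Cells received vehicle (DMSO), EC359 at 100 nM, vorinostat (SAHA) at 10 µM, or EC359 and vorinostat together at the same concentrations, in each case for 24 h, and total RNA was sequenced in 2 libraries per group. EC359 is a small molecule inhibitor of the leukemia inhibitory factor receptor (LIFR), and vorinostat inhibits histone deacetylases (HDACi). The comparison of the 4 groups asked how each drug, and EC359 added to vorinostat, changed these genes.

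The values are counts scaled to library size (normalized CPM), from libraries with 19069450 to 24759041 counts on genes, which made up 85.1% to 88.1% of the unique alignments. A gene is said to rise or fall where its adjusted p was under 0.01 (edgeR quasi-likelihood test, Benjamini-Hochberg adjustment over 13694 genes), and it was called where the log2 fold change was also above 1 or below -1. Over all genes, the log2 difference within a pair of libraries had an SD of 0.31 (vorinostat) to 0.56 (EC359), so the EC359 libraries were the least alike. The labels do not say whether the libraries of a group came from separate cultures, so the p-values measure the spread between these libraries, which may be technical. Of the mesenchymal markers, VIM, FN1, CD44 and CAV1 were above 475 CPM in every library and ZEB1 was at 43.2 to 208 CPM. The epithelial or hormone receptor genes ESR1, PGR, CDH1, EPCAM and KRT8 stayed at or below 9.67 CPM, and PTPRC, CD3E, PECAM1 and ALB of other cell types at or below 2.93 CPM. In RNA from a whole culture, a lower level per cell and fewer cells with the transcript cannot be told apart.

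Lysosomes are acidic compartments in which proteases, glycosidases and lipid enzymes break down material from outside and from within the cell. In autophagy, a double membrane grows around cytoplasm, receptors such as p62 tether cargo to ATG8 proteins on that membrane, and the closed vesicle fuses with a lysosome. TFEB, TFE3 and MITF are related transcription factors that bind E-box elements, including CACGTG, near many lysosomal and autophagy genes. HDAC inhibitors and inhibitors of growth signaling are both known to alter this machinery in tumor cells.

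The promoters of the 3 members that hold CACGTG and were called with vorinostat, past the fold threshold, are shown first, because this is the core of the element that TFEB family factors bind. RefSeq promoters (GRCh38.p14, 250 bases before to 50 bases after the start, 300 bases in all) matched 37 of the 47 members. Capitals mark CACGTG, and each window runs from 5′ to 3′ along its gene. The GAA window lies at chr17:80101331-80101630 on the plus strand, with the motif beginning at bases 175 and 220. The NEU1 window lies at chr6:31862772-31863071 on the minus strand, with the motif at base 125. The MCOLN1 window lies at chr19:7522374-7522673 on the plus strand, with the motif at bases 210 and 237.
GAA: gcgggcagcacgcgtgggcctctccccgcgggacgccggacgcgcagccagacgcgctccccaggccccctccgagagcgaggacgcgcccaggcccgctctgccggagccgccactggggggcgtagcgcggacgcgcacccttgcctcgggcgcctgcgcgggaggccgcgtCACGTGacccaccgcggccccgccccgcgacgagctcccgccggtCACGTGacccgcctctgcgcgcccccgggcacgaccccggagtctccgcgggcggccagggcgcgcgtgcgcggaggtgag
NEU1: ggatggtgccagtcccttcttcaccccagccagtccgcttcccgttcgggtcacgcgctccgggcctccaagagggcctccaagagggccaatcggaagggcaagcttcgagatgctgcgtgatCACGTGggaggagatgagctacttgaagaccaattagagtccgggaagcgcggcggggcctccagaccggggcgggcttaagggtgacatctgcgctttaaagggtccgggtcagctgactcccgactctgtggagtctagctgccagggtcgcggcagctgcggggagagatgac
MCOLN1: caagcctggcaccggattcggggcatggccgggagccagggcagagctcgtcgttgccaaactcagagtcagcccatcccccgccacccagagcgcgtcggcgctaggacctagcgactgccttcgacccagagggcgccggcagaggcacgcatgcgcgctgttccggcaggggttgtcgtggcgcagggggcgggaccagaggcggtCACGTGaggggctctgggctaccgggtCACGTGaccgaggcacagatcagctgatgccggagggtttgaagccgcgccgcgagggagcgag
Some genes had more than 1 promoter window, so a gene was counted as holding a motif where any of its windows did. CACGTG was held by 10 of the 37 members (27.0%), against 2396 of 27305 genes with a promoter (8.77%). The longer TCACGTGA, which contains it, was held by 6 of the 37 (16.2%) against 321 genes (1.18%). Both motifs read the same on either strand. The 27305 genes were not limited to the 13694 tested here, whereas all members were expressed above the filter on low counts. The other members with CACGTG were ATG3, ATP6V0D1, CD63, CLCN7, CTSA, CTSD and LAMP1, and LAMP1 held 6 copies. No promoter was matched for ASAH1, ATP6V1A, ATP6V1H, CTSB, CTSK, HEXA, LAMP2, MANBA, PSAP and UVRAG. A match describes these letters and says nothing about binding in BT-549 cells.

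All 47 genes were expressed above the filter on low counts. Vorinostat raised 15 of them past the fold threshold and lowered none (31.9% higher), where 30.1% of all tested genes were called, 16.8% higher and 13.3% lower. DESeq2 also called 15 members higher and 0 lower. At any fold, 23 members rose and 3 fell, where 26.2% of all genes rose and 25.9% fell, and the members' median log2 fold change was 0.29, against 0.03 over all tested genes. EC359 alone called none of the 47 (edgeR quasi-likelihood test), where 3.67% of all genes were called, 1.94% higher and 1.72% lower. At an unadjusted p under 0.05, 12 members were higher and 3 lower with EC359, against 2047 higher and 2187 lower of all 13694 tested genes. DESeq2 called 1 member, GABARAPL1, where it called 4.16% of all genes. CTSB, CTSL1, SQSTM1 and MAP1LC3B were the 4 members with an adjusted p under 0.01 with EC359, all higher, where 3.81% of all genes passed higher and 4.01% lower. The combination against vehicle called 15 members higher and 1 lower, where 34.8% of all genes were called, 19.5% higher and 15.3% lower. Against EC359 it called 16 higher and 1 lower, where 33.7% of all genes were called, 19.8% higher and 13.9% lower. Adding EC359 to vorinostat called 5 members higher and none lower, by DESeq2 as well, where 4.25% of all genes were called, 3.37% higher and 0.876% lower. At an unadjusted p under 0.05, 12 members were higher and 7 lower in this comparison, against 2953 higher and 2599 lower of all 13694 tested genes. The comparisons against vehicle share the vehicle libraries, so their counts are given side by side only.

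**Figure D1:**
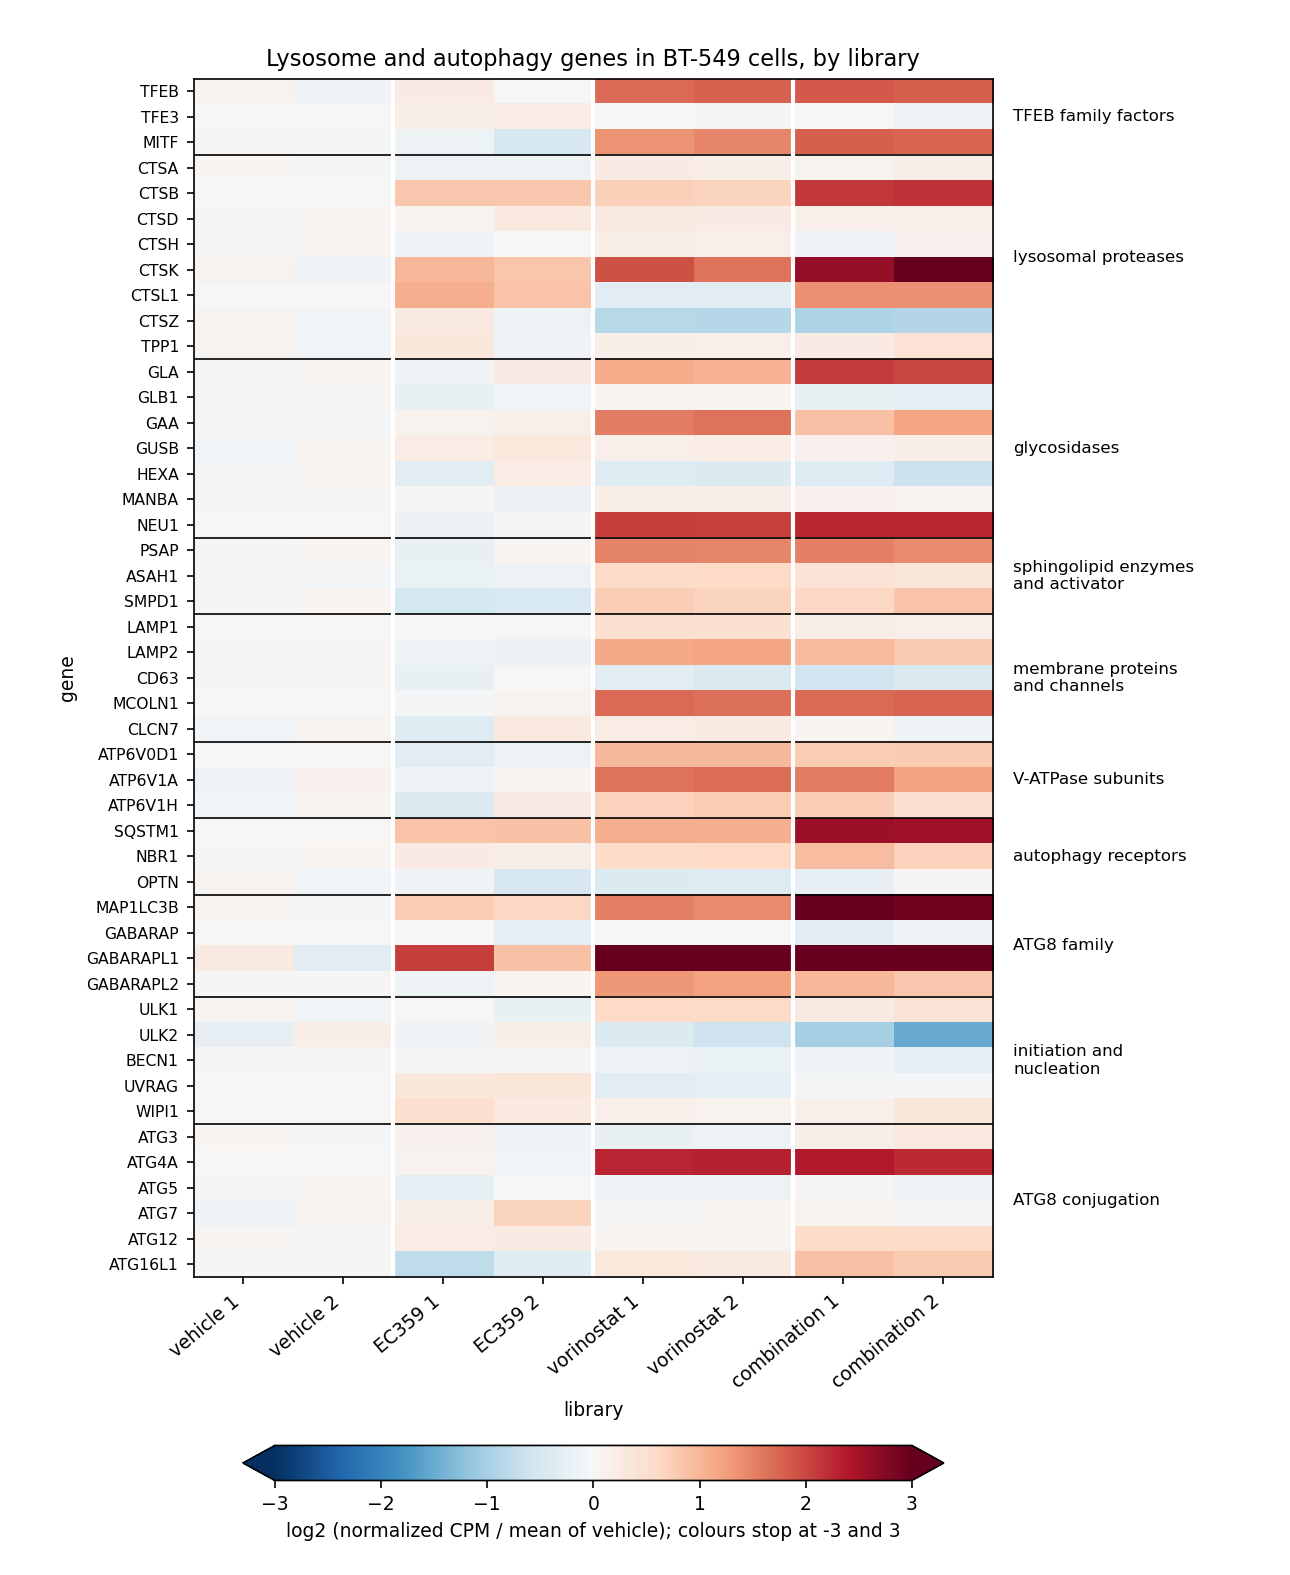
Heat map of the 47 genes (rows, by role) in the 8 libraries (columns), as the log2 ratio of normalized CPM to the mean of the vehicle libraries, with colours ending at -3 and 3. Most of the strong colour is in the 4 libraries with vorinostat. CTSB, CTSL1, SQSTM1 and MAP1LC3B are also coloured in the EC359 libraries, as are the scarce CTSK and GABARAPL1, which did not pass with EC359.

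Among the transcription factors, vorinostat raised TFEB and MITF, while TFE3 did not pass the test. TFEB (chr6:41651716-41703997, minus strand, GRCh37), a regulator of lysosome biogenesis, was at 1.89 and 1.63 CPM with vehicle and 2.10 and 1.78 with EC359. It was at 5.71 and 5.99 CPM with vorinostat and 6.29 and 6.08 with the combination. The libraries with vorinostat were all above those without it, and the log2 fold change against vehicle was 1.73 ± 0.22 (SE, adjusted p = 1.1e-04) for vorinostat and 1.81 ± 0.22 (adjusted p = 7.2e-05) for the combination. MITF, best known from melanocytes, was at 11.9 and 11.5 CPM with vehicle and 10.6 and 8.37 with EC359. It reached 29.6 and 32.3 CPM with vorinostat and 40.4 and 39.2 with the combination. These groups did not overlap, and MITF rose by 1.40 ± 0.14 with vorinostat on the log2 scale (adjusted p = 2.9e-05). The difference of 0.36 ± 0.14 between the combination and vorinostat did not pass (adjusted p = 0.075). TFE3 was at 107 and 111 CPM with vehicle, 124 and 127 with EC359, 109.7 and 106 with vorinostat and 108 and 97.8 with the combination. Its groups overlapped between vehicle, vorinostat and the combination. Per kb of transcript TFE3 was the most abundant of the 3 factors in each group, at 33.1 CPM per kb with vehicle against 2.44 for MITF and 0.755 for TFEB.

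The lysosomal proteases did not move together. CTSB (chr8:11700033-11727042, minus strand), which encodes the cysteine protease cathepsin B, was at 2282 and 2285 CPM with vehicle. It was at 4017 and 3984 CPM with EC359 and at 3772 and 3626 with vorinostat. The combination libraries held 9991 and 10201 CPM, far above all other libraries. The log2 fold change against vehicle was 0.81 ± 0.06 for EC359 (adjusted p = 6.1e-05), 0.70 ± 0.06 for vorinostat (adjusted p = 1.7e-05) and 2.14 ± 0.07 for the combination (adjusted p = 4.3e-08), a 4.42-fold rise. CTSL1, the older symbol of the cathepsin L gene CTSL (chr9:90338966-90346384, plus strand), was higher than vehicle with EC359 and lower with vorinostat. It was at 684 and 693 CPM with vehicle, 1473 and 1248 with EC359, 549 and 542 with vorinostat and 1779 and 1771 with the combination. None of these groups overlapped. CTSL1 rose by 0.98 ± 0.09 with EC359 (adjusted p = 1.3e-04), changed by -0.34 ± 0.09 with vorinostat (adjusted p = 0.0089) and was 1.70 ± 0.09 higher in the combination than with vorinostat (adjusted p = 5.1e-06), all on the log2 scale. The lower level with vorinostat did not pass with DESeq2 (adjusted p = 0.011) or without any 1 of the vehicle, vorinostat or combination libraries, with an adjusted p of up to 0.054.

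CTSK, whose product degrades collagen and is best known from osteoclasts, was a scarce transcript. Its libraries held 1.42 and 1.21 CPM with vehicle, 2.64 and 2.33 with EC359, 4.94 and 4.08 with vorinostat and 8.19 and 10.4 with the combination. The groups did not overlap, and CTSK rose by 1.77 ± 0.25 with vorinostat (adjusted p = 2.4e-04). The further rise of 1.05 ± 0.21 in the combination over vorinostat (adjusted p = 0.0074) was not called with total counts (0.96) or without any 1 of the vehicle, vorinostat or combination libraries, where it lay between 0.82 and 1.17. CTSZ fell, by 0.84 with vorinostat (SE 0.13, adjusted p = 4.4e-04) and by 0.91 with the combination (SE 0.13, adjusted p = 2.3e-04). The aspartic protease gene CTSD, and CTSA, CTSH and TPP1, had log2 fold changes between 0.16 and 0.26 with vorinostat, and none passed.

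**Figure D2:**
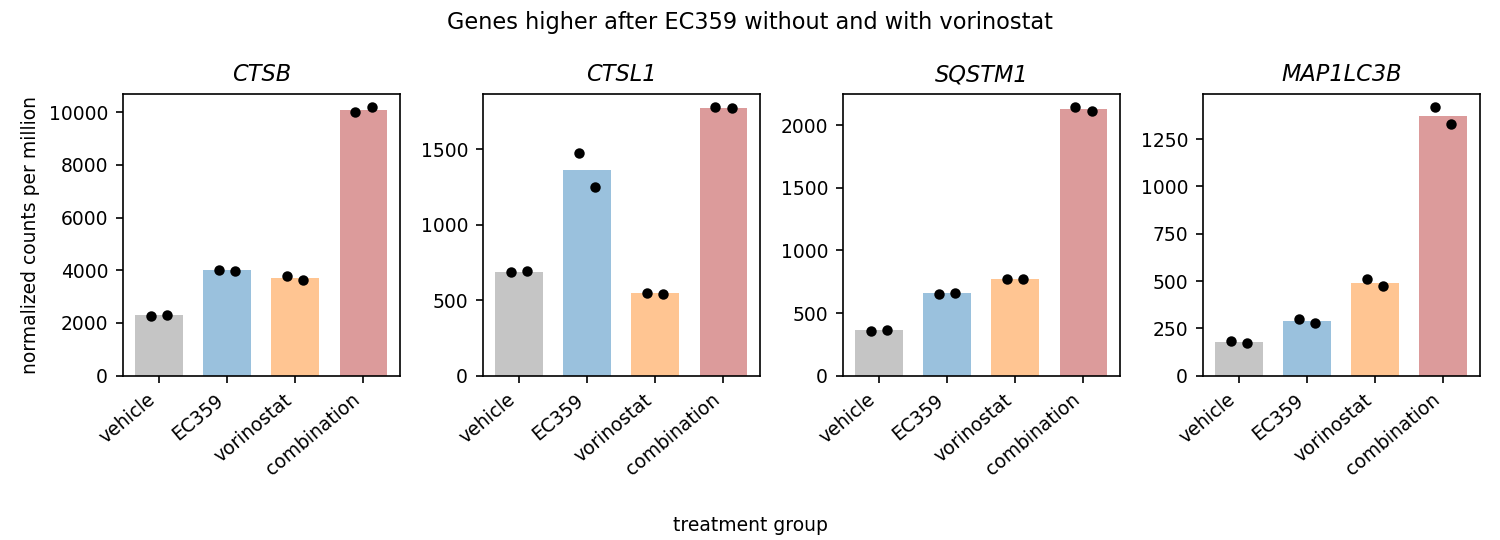
Normalized CPM of CTSB, CTSL1, SQSTM1 and MAP1LC3B in the 4 treatment groups, each axis starting at 0, with bars for the mean of 2 libraries and points for the libraries. The combination is the highest group for all 4 genes, and CTSL1 alone is lower with vorinostat than with vehicle.

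Of the 7 glycosidases, vorinostat raised GLA, GAA and NEU1 and left the other 4 short of the test, where 26.2% of all genes rose. NEU1 (chr6:31825436-31830682, minus strand), the lysosomal sialidase, was at 174 and 178 CPM with vehicle and 156 and 172 with EC359. It was at 735 and 725 CPM with vorinostat and at 847 and 843 with the combination. The vorinostat libraries were 4.15-fold above vehicle, with a log2 fold change of 2.05 ± 0.08 (adjusted p = 2.5e-07). GLA, the alpha-galactosidase that is lost in Fabry disease, was at 68.4 and 74.5 CPM with vehicle, 66.0 and 85.1 with EC359, 154 and 146 with vorinostat and 306 and 285 with the combination. The EC359 and vehicle libraries overlapped, whereas the combination was the highest group. GLA rose by 1.07 ± 0.13 with vorinostat (adjusted p = 7.4e-05), and it slipped to 0.998, under the fold threshold, without vehicle replicate 1. Its rise from vorinostat to the combination, 0.98 ± 0.12 (adjusted p = 7.6e-04), stayed just under the fold threshold, and did not pass without any 1 of the vorinostat or combination libraries (adjusted p up to 0.021). GAA, which breaks down lysosomal glycogen, was at 12.3 and 11.6 CPM with vehicle, 12.8 and 13.2 with EC359, 34.9 and 37.2 with vorinostat and 21.9 and 27.0 with the combination. GAA rose by 1.59 ± 0.14 with vorinostat (adjusted p = 1.2e-05) and by 1.03 ± 0.14 with the combination (adjusted p = 1.6e-04). The second of these lay close to the fold threshold, between 0.82 and 1.13 over the alternatives, and was lost with total counts, without the filter on low counts, in a fit of the libraries compared, and without combination replicate 2, vehicle replicate 2 or either vorinostat library. The log2 fold changes of GLB1, GUSB, HEXA and MANBA with vorinostat ran from -0.40 to 0.19.

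All 3 genes of sphingolipid breakdown rose with vorinostat, where 26.2% of all genes rose. PSAP, the precursor of the saposins that help lipid enzymes reach their substrates, was at 652 and 708 CPM with vehicle, 580.1 and 707 with EC359, 1900.4 and 1891 with vorinostat and 1949 and 1818 with the combination. The libraries with vorinostat were well above the other 4, and those with EC359 overlapped vehicle. PSAP rose by 1.48 ± 0.10 with vorinostat (adjusted p = 3.5e-06), and the combination was no further from vorinostat than -0.01 ± 0.10. The acid ceramidase gene ASAH1 rose by 0.58 ± 0.08 (adjusted p = 2.2e-04). The acid sphingomyelinase gene SMPD1 rose by 0.70 ± 0.11 (adjusted p = 3.6e-04), and was at -0.50 ± 0.11 with EC359, which did not pass (adjusted p = 0.014).

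Lysosomal membrane genes rose with vorinostat in 3 of 5 cases and fell in 1, where 26.2% of all genes rose and 25.9% fell. MCOLN1, the calcium channel of the lysosomal membrane, was at 32.8 CPM in both vehicle libraries, 31.5 and 35.6 with EC359, 107 and 104 with vorinostat and 107 and 110.4 with the combination. These are separate levels with and without vorinostat, 1.68 ± 0.10 apart on the log2 scale (adjusted p = 1.3e-06). LAMP2, a major protein of the lysosomal membrane, was at 519 and 539.9 CPM with vehicle, 481 and 467 with EC359, 1158 and 1195 with vorinostat and 1029 and 909.5 with the combination. It rose by 1.15 ± 0.09 with vorinostat (adjusted p = 4.6e-06) and by 0.87 ± 0.09 with the combination (adjusted p = 1.8e-05). LAMP1 rose by 0.46 ± 0.07 with vorinostat (adjusted p = 4.1e-04), the tetraspanin gene CD63 was at -0.39 ± 0.10 (adjusted p = 0.0089), and the chloride transporter gene CLCN7 did not pass (0.24 ± 0.18).

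All 3 subunits of the V-ATPase, the pump that acidifies the lysosome, rose with vorinostat, where 26.2% of all genes rose. ATP6V1A, the catalytic subunit, was at 61.8 and 75.2 CPM with vehicle, 62.8 and 71.6 with EC359, 211 and 217 with vorinostat and 200.3 and 158 with the combination. Its levels overlapped between vehicle and EC359 and not between either of these and the groups with vorinostat, with a log2 fold change of 1.64 ± 0.14 for vorinostat (adjusted p = 1.1e-05). ATP6V0D1 rose by 0.97 ± 0.09 (adjusted p = 1.5e-05) and ATP6V1H by 0.72 ± 0.19 (adjusted p = 0.0089).

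Among the autophagy receptors, SQSTM1 (chr5:179233398-179265078, plus strand), which encodes p62, rose with each drug. It was at 358 and 367 CPM with vehicle, 655 and 663 with EC359, 770.4 and 769 with vorinostat and 2147 and 2112 with the combination. The 4 groups were all separate, with the combination 5.87-fold above vehicle. The log2 fold change against vehicle was 0.86 ± 0.07 for EC359 (adjusted p = 7.1e-05), 1.09 ± 0.07 for vorinostat (adjusted p = 2.2e-06) and 2.55 ± 0.07 for the combination (adjusted p = 3.1e-08). On the opposite strand, exons of C5orf45 (now MRNIP) cover 55.7% of the SQSTM1 exon bases, and whether reads were counted by strand is not given in the sources used here. C5orf45 itself had a log2 fold change of 0.46 in the combination, which did not pass (adjusted p = 0.063). Windows of 50 bases that also occur in other genes of the GENCODE annotation made up 65.3% of GABARAP, 61.3% of CTSD and 36.4% of BECN1. They made up 29.3% of ATG7, 26.4% of WIPI1 and 25.4% of CLCN7. The reads were counted on RefSeq genes, so how many reads there were left out is uncertain. NBR1, a second receptor, rose by 0.58 ± 0.11 with vorinostat (adjusted p = 0.0011), and OPTN was at -0.39 ± 0.14 (adjusted p = 0.033).

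The ATG8 family encodes the ubiquitin-like proteins that are joined to lipid on the autophagic membrane. Vorinostat raised 3 of the 4 family genes in the set, where 26.2% of all genes rose. MAP1LC3A and MAP1LC3C were listed with the other autophagy genes. MAP1LC3B (chr16:87417559-87438385, plus strand), the LC3B gene, was at 185 and 173 CPM with vehicle, 302 and 277 with EC359, 509 and 474 with vorinostat and 1419.9 and 1327 with the combination. No 2 groups overlapped. Against vehicle its log2 fold change was 0.69 ± 0.09 with EC359 (adjusted p = 8.8e-04), 1.46 ± 0.09 with vorinostat (adjusted p = 1.6e-06) and 2.94 ± 0.09 with the combination (adjusted p = 4.8e-08), the last a 7.68-fold rise. The EC359 rise did not pass when a vehicle library was left out, either one, or in a fit of those 4 libraries alone, with a highest adjusted p of 0.021. MAP1LC3B shares 18.3% of its 50-base windows with other genes. Its near copy MAP1LC3B2 was listed at 9.06 and 10.8 CPM with vehicle and 45.6 and 54.8 with the combination. How many reads of either were left out or assigned to the other is uncertain.

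GABARAPL1 (chr12:10365057-10375727, plus strand) was close to the detection limit without vorinostat, at 0.566 and 0.374 CPM with vehicle and 1.98 and 0.862 with EC359. With vorinostat it was at 13.0 and 14.8 CPM and with the combination at 17.5 and 15.0. Its lowest library held 8 counts, and the rise with vorinostat, 4.87 ± 0.36 on the log2 scale (adjusted p = 4.7e-06), had the widest error among the members called with vorinostat. GABARAPL2 was at 82.0 and 86.0 CPM with vehicle, 77.2 and 86.8 with EC359, 208 and 193 with vorinostat and 166 and 148 with the combination. It rose by 1.26 ± 0.10 with vorinostat (adjusted p = 8.6e-06). GABARAP, whose level was between 235.5 and 304 CPM in all libraries, had a log2 fold change of -0.01 ± 0.11.

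The genes that start an autophagosome moved little. Of ULK1, ULK2, BECN1, UVRAG and WIPI1, vorinostat raised ULK1, the initiating kinase, by 0.58 ± 0.13 (adjusted p = 0.0032). BECN1, which encodes the lipid kinase subunit Beclin 1, was at 60.9 and 58.0 CPM with vehicle, 56.8 and 60.8 with EC359, 53.5 and 51.7 with vorinostat and 54.2 and 49.9 with the combination. The log2 fold changes of BECN1 against vehicle lay between -0.19 and -0.02, and none passed. ULK2 was called lower in the combination than with vehicle (-1.22 ± 0.29, adjusted p = 0.0043), from 3.45 and 4.67 CPM to 2.05 and 1.43, and this call was lost without vehicle replicate 2 or combination replicate 2.

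In the conjugation machinery that attaches ATG8 proteins to lipid, ATG4A stood apart. ATG4A, a protease that processes ATG8 proteins, was at 10.0 and 10.3 CPM with vehicle, 10.9 and 9.54 with EC359, 49.8 and 50.0 with vorinostat and 53.0 and 47.7 with the combination. Its rise with vorinostat was 4.91-fold (log2 2.30 ± 0.12, adjusted p = 8.7e-07), and the combination differed from vorinostat by 0.01 ± 0.11. ATG3, ATG5, ATG7, ATG12 and ATG16L1 had log2 fold changes between -0.20 and 0.29 with vorinostat, and none passed. ATG12, the ubiquitin-like partner of ATG5, rose from vorinostat to the combination by 0.50 ± 0.09 (adjusted p = 0.0041). ATG16L1, which places the conjugation complex on the membrane, had group means of 43.2 CPM with vehicle, 29.4 CPM with EC359, 52.8 CPM with vorinostat and 76.8 CPM with the combination. It rose by 0.83 ± 0.13 with the combination against vehicle (adjusted p = 4.0e-04), whereas -0.55 ± 0.13 with EC359 did not pass (adjusted p = 0.022).

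**Figure D3:**
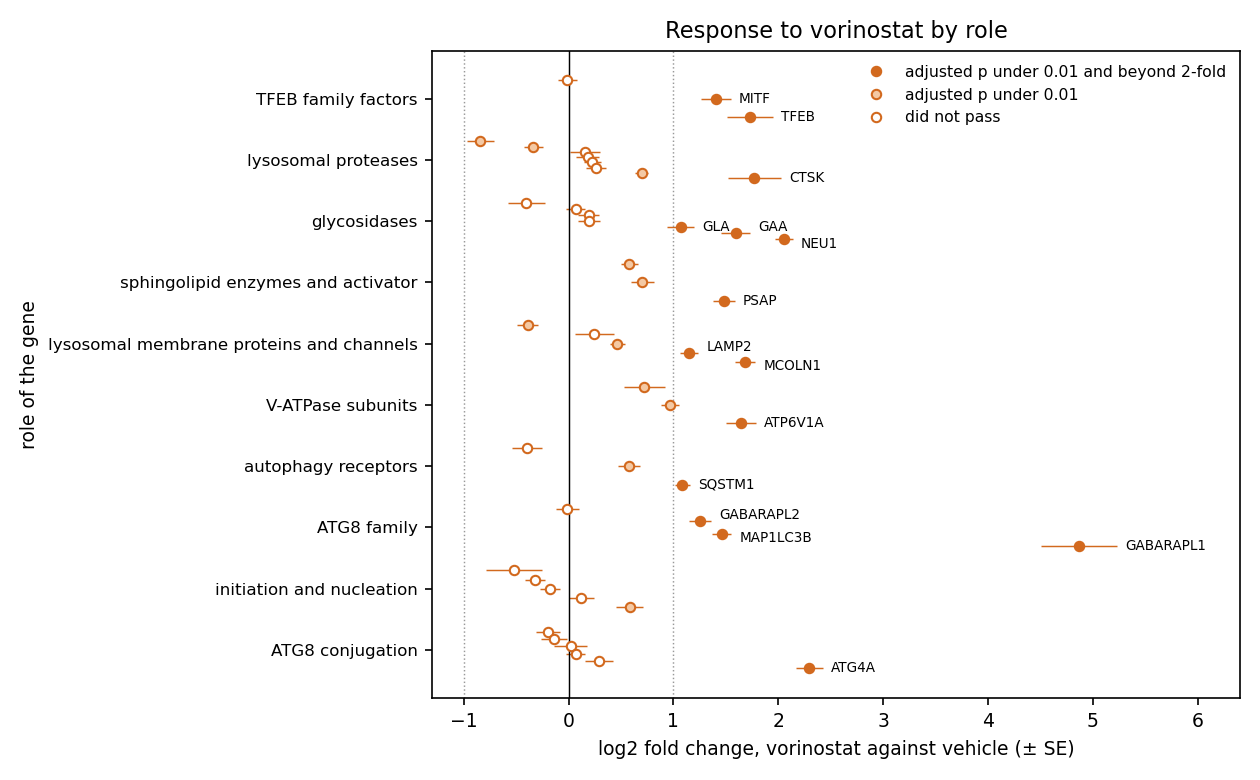
Log2 fold change of each of the 47 genes with vorinostat against vehicle (horizontal axis, bars are 1 SE), by role (vertical axis), with dotted lines at the fold threshold. Filled points, the 15 called genes, appear in every role but initiation and nucleation, and GABARAPL1 lies farthest to the right at 4.87.

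The effect of EC359 was then compared without and with vorinostat, in contrasts that share no library. With vorinostat present, EC359 raised CTSB by 1.45 ± 0.07 (adjusted p = 1.6e-06), SQSTM1 by 1.47 ± 0.07 (adjusted p = 2.5e-06) and MAP1LC3B by 1.48 ± 0.09 (adjusted p = 1.0e-05) on the log2 scale. Without it, the same genes rose by 0.81, 0.86 and 0.69. The interaction, the difference between these effects, was called for these 3 members and no other, where 2.1% of all genes were called, 1.62% higher and 0.482% lower. It was 0.64 ± 0.09 for CTSB (adjusted p = 0.0047), 0.61 ± 0.10 for SQSTM1 (adjusted p = 0.0092) and 0.79 ± 0.12 for MAP1LC3B (adjusted p = 0.0075). Their adjusted p lay close to the threshold. CTSB and SQSTM1 were not called with total counts, SQSTM1 and MAP1LC3B not with RLE normalization, and SQSTM1 not without the filter on low counts. Leaving out any 1 vehicle, vorinostat or combination library removed all 3 calls, with values still between 0.53 and 0.85 over all alternatives and a highest adjusted p of 0.079 for CTSB, 0.12 for SQSTM1 and 0.091 for MAP1LC3B. Leaving out either EC359 library raised the number of interaction calls, both among the members and over all genes. The calls of CTSB, CTSL1, SQSTM1 and MAP1LC3B between the combination and vorinostat held in every alternative run. CTSL1 (0.72 ± 0.13, adjusted p = 0.012), GLA (0.90 ± 0.18, adjusted p = 0.019) and ATG16L1 (1.10 ± 0.19, adjusted p = 0.011) had interactions that did not pass.

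**Figure D4:**
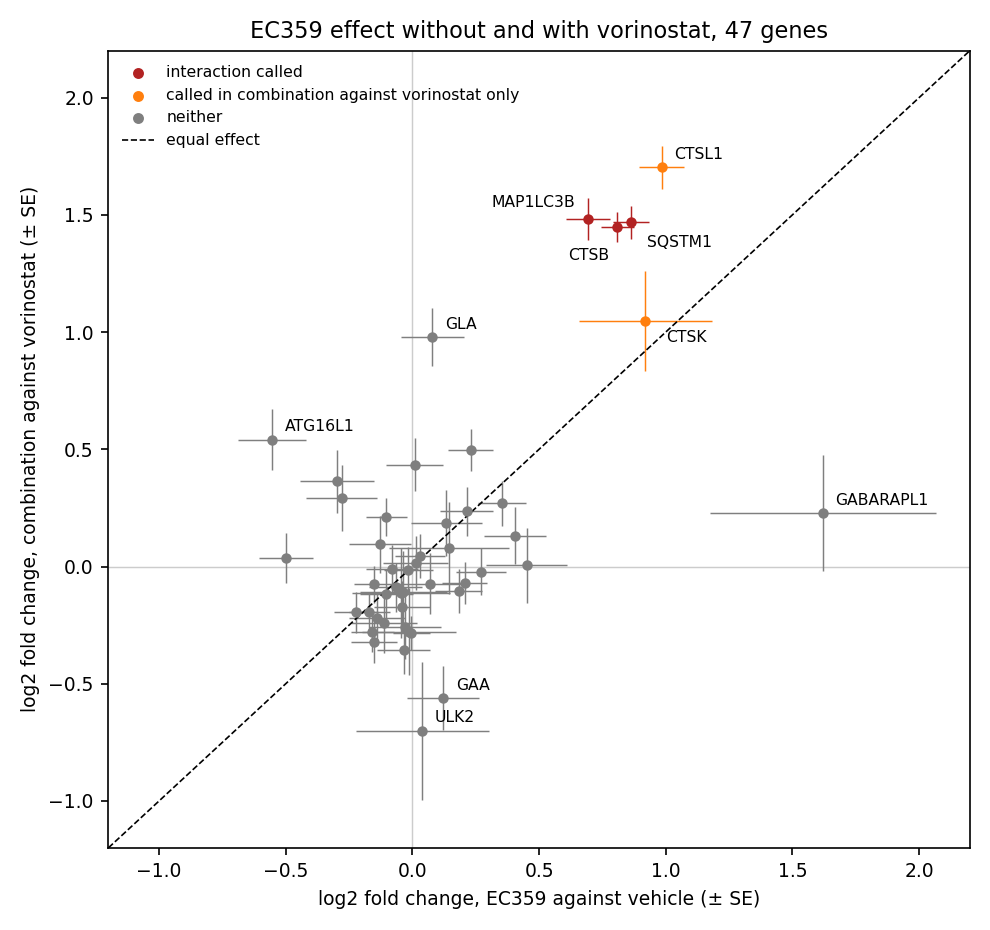
Log2 fold change of EC359 against vehicle (horizontal axis) and of the combination against vorinostat (vertical axis) for the 47 genes, with bars of 1 SE and a dashed line where both effects are equal. CTSB, SQSTM1 and MAP1LC3B lie above the line near 0.81, 0.86 and 0.69 on the horizontal and 1.45, 1.47 and 1.48 on the vertical axis, and most other genes are near the origin.

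Taken as a share of all gene counts, the 47 genes held 0.989% and 1.00% in the vehicle libraries, 1.22% and 1.29% with EC359, 1.59% and 1.56% with vorinostat and 2.39% and 2.40% with the combination. The 4 groups did not overlap, and the combination was 2.40 times vehicle. CTSB alone carried much of this, since without it the ratio to vehicle was 1.12 with EC359, 1.57 with vorinostat and 1.86 when both were given. CTSB, CTSL1, SQSTM1 and MAP1LC3B, grouped here from their values, held 0.355% and 0.358% with vehicle and 1.46% and 1.49% with the combination. The other 43 genes held 0.634% and 0.647% with vehicle, 0.592% and 0.652% with EC359, 1.02% and 1.01% with vorinostat and 0.928% and 0.910% with the combination. In those 43 genes EC359 overlapped vehicle, and the combination was below vorinostat in both libraries. The 4 genes taken out were those that passed with EC359, so this remainder is no test of EC359. Shares use total counts. With total-count scaling, the median log2 fold change of all genes from vorinostat to the combination was -0.096, against -0.008 in the main fit. Per kb of transcript, CTSB was the most abundant member in each group, from 612 CPM per kb with vehicle to 2704 with the combination. SQSTM1 and MAP1LC3B reached 749.9 and 639.7 CPM per kb with the combination, from 128 and 83.3 with vehicle, and were then the third and the fifth of the 47.

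**Figure D5:**
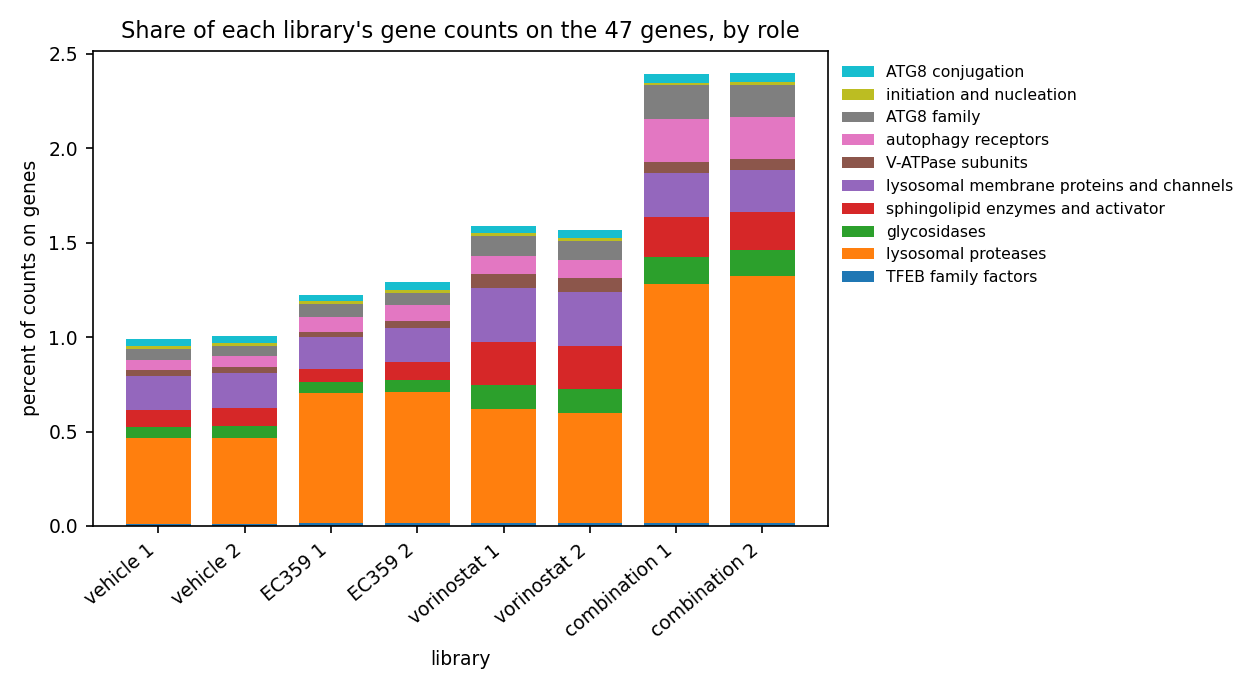
Share of each library's gene counts (percent, vertical axis) that fell on the 47 genes, stacked by role, for the 8 libraries. The stacks reach 0.989% and 1.00% with vehicle and 2.39% and 2.40% with the combination, and the protease segment, which holds CTSB, grows from 0.454% and 0.453% to 1.27% and 1.31%.

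Other genes of these pathways, 117 tested of 120 listed, were read from the same fit. Vorinostat raised 57 and lowered 13 of them at an adjusted p under 0.01 (48.7% and 11.1%, against 26.2% and 25.9% of all genes), with a median log2 fold change of 0.43. The other V-ATPase subunits all lay above 0, with 10 of 14 rising and none falling. ATP6V0A1, ATP6V0B and the accessory subunit gene ATP6AP2 had the largest rises among them, at 1.53 ± 0.12, 1.49 ± 0.34 and 1.41 ± 0.18. The rise of ATP6V0B did not pass without any 1 of the vehicle, vorinostat or combination libraries (adjusted p up to 0.043). Of 36 other autophagy genes, 21 rose and 2 fell. PINK1, a mitophagy kinase, rose by 2.64 ± 0.15, the lipid transfer gene ATG2A by 2.46 ± 0.13 and the mitophagy receptor gene BNIP3 by 1.75 ± 0.15, whereas DRAM2 fell by 1.49 (SE 0.11) and DRAM1 fell by 1.31 (SE 0.13). With EC359 alone, 4 of the 117 genes rose and 5 fell (3.42% and 4.27%, against 3.81% and 4.01% of all genes). PINK1 was among those that fell with EC359, at -0.998 ± 0.16 (adjusted p = 0.0032). On the opposite strand, exons of PINK1-AS cover 58.1% of the PINK1 exon bases. Whether reads were counted by strand is not given in the sources used here, which limits the PINK1 values with both drugs. From vorinostat to the combination, 10 of the 117 rose and 8 fell (8.55% and 6.84%). Of all genes, 8.45% rose and 5.26% fell in that comparison, so these shares were near the background.

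Of 28 other lysosomal enzymes, 11 rose (39.3%) and 7 fell (25.0%) with vorinostat, where 26.2% of all genes rose and 25.9% fell, so the share that fell was near that of all genes. The fucosidase gene FUCA1 was at 3.78 and 3.41 CPM with vehicle and 58.3 and 54.2 with vorinostat, a log2 fold change of 3.97 ± 0.17 (adjusted p = 3.1e-07), and it was lower again in the combination (-0.71 ± 0.14 against vorinostat, adjusted p = 0.0067), which did not pass without any 1 of the vehicle, vorinostat or combination libraries (adjusted p up to 0.063). The protease gene LGMN rose from 88.7 and 82.6 CPM with vehicle to 248 and 237 with vorinostat (adjusted p = 1.8e-06), and the acid lipase gene LIPA rose by 1.44 ± 0.09 on the log2 scale. GALC, which degrades galactosylceramide, fell by 2.47 (SE 0.19), HGSNAT fell by 1.47 (SE 0.13) and ARSB fell by 1.26 (SE 0.11). With EC359 alone, 22 of these 28 enzymes lay below 0 and 6 above, with a median log2 fold change of -0.28. Of them, 3 fell with EC359 (10.7%, against 4.01% of all genes) and none rose. LIPA was among those that fell, at -0.48 ± 0.09 (adjusted p = 0.0064). Of 15 other membrane and sorting genes, 5 rose (33.3%) and 1 fell (6.67%) with vorinostat. SORT1 rose by 2.37 ± 0.09 and the sialic acid exporter gene SLC17A5 by 1.66 ± 0.11, and TMEM192 fell by 1.03 (SE 0.16). When EC359 was added to vorinostat, 2 of these 15 genes rose and 3 fell (13.3% and 20%, against 8.45% and 5.26% of all genes). SORT1 was then at -0.55 ± 0.09 (adjusted p = 0.0026) and SLC17A5 at -0.72 ± 0.11 (adjusted p = 0.0017) against vorinostat. NPC1, which exports cholesterol from the lysosome, was at 82.8 and 80.7 CPM with vehicle, 375 and 412 with EC359, 149 and 158 with vorinostat and 545.5 and 512 with the combination. All 4 groups of NPC1 were separate, and it rose by 2.27 ± 0.09 with EC359 (adjusted p = 1.8e-06), by 0.91 ± 0.09 with vorinostat (adjusted p = 2.5e-05) and by 1.78 ± 0.09 when EC359 was added to vorinostat (adjusted p = 3.3e-06).

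Of 24 genes that control mTORC1 and TFEB at the lysosome, 10 rose (41.7%) and 3 fell (12.5%) with vorinostat, where 26.2% of all genes rose and 25.9% fell. SESN2, a stress-induced inhibitor of mTORC1, was at 24.1 and 25.7 CPM with vehicle, 65.0 and 79.1 with EC359, 68.2 and 70.1 with vorinostat and 422 and 405 with the combination. The combination libraries were far above all others, and the EC359 and vorinostat libraries overlapped each other. SESN2 rose by 1.53 ± 0.11 with EC359 (adjusted p = 3.9e-05), by 1.47 ± 0.11 with vorinostat (adjusted p = 5.5e-06) and by 2.58 ± 0.11 from vorinostat to the combination (adjusted p = 1.3e-06). The AMPK subunit gene PRKAA2 rose by 3.13 ± 0.21 with vorinostat (adjusted p = 2.7e-06). SESN3 had 1 count over the vehicle libraries and 172 over the vorinostat libraries, a ratio of 171 with an exact 95% interval of 30.3 to 6804 for counting error. TFEC, the fourth gene of the TFEB family, had 6 and 58 counts, a ratio of 9.63 with an interval of 4.16 to 27.3.

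Read against the promoters shown above, 3 of the 10 members with CACGTG were called with vorinostat, and 5 rose and 1 fell at an adjusted p under 0.01. Among the 27 members with a promoter and no CACGTG, 8 were called, and 11 rose and 2 fell. Among the 10 members with no promoter matched, 4 were called, and 7 rose and none fell. Over all genes, 30.1% were called (16.8% higher and 13.3% lower), 26.2% rose and 25.9% fell. The share called in either direction was near that of all genes with and without the motif. All calls of members were higher, and the share called higher was above the 16.8% of all genes in each of these sets. The median log2 fold change was 0.36 with the motif, 0.18 without it and 0.71 where no promoter was matched, and no test of a difference between these was made. The promoters of SQSTM1 and MAP1LC3B, and that of CTSL1, held no CACGTG in these windows. From vorinostat to the combination, the 10 members with the motif had log2 fold changes between -0.56 and 0.43, with a median of -0.11.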

How the data were processed

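RNA-seq was done on BT-549 cells in 8 libraries, 2 per treatment group, grouped by the sample labels. Per the labels and the study's methods, the authors prepared TruSeq libraries, sequenced single ends of 50 bp, aligned the reads to hg19 by TopHat2 (2.0.8b, per the submitters' processing notes) and deposited raw read counts per RefSeq gene symbol from HTSeq, without normalization. The HTSeq version, the strand setting and any batch are not given in the sources used here. HTSeq leaves out reads that align to several places. The 5 summary lines of each list were left out.

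Genes were kept by filterByExpr (13694 of 23228) and scaled by TMM (factors 0.955 to 1.03), and edgeR 4.0.16 in R 4.3.3 fitted 1 mean for each group over all 8 libraries (common dispersion 0.0135, 4 residual degrees of freedom). The contrasts and the interaction were tested with glmQLFTest, a quasi-likelihood test, and p-values were adjusted over all tested genes. An interaction was called at an adjusted p under 0.01 alone. SE was taken as the size of the log2 fold change over the root of its F statistic. Library totals limit precision, and 3 counts correspond to 0.121 to 0.157 CPM. On simulated data made from these libraries, 93.5% of 200 changed genes and 86.5% of 200 genes with an interaction were recovered among 13694 genes, with 1 and 2 unchanged genes called. The planted changes were all beyond the fold threshold and larger than any interaction of the members. All genes and libraries were given the same dispersion. Recovery of smaller effects, or with the wider spread of the EC359 libraries, was not tested. Levels per kb use the exons of canonical GENCODE transcripts on GRCh37. The members, roles and other gene lists were chosen with earlier results of these data known. Values in every library are given for the TFEB family, for members called with either drug, between the combination and vorinostat or in the interaction, and for the most abundant member of a role with none; up to 3 called genes in each direction are named in each other list. Members named beyond this rule were chosen after their values were seen. The alternatives tried were RLE and total-count scaling, DESeq2 1.42.0, other filters and thresholds, fits on the libraries compared, the replicate number as a block, and leaving out each library. Figures were drawn with matplotlib 3.10.9.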

Additional observations from a re-analysis of the deposited data

Results flagged for a closer look

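The difference between the EC359 effect with vorinostat and without it, tested as the interaction in the edgeR quasi-likelihood model, marked 4 of the genes named. The interaction was 0.64 on the log2 scale for CTSB, 0.61 for SQSTM1, 0.79 for MAP1LC3B and 1.05 ± 0.15 (adjusted p = 0.0054) for SESN2. In each of them the combination libraries were above all other libraries. For SESN2 it lay between 0.91 and 1.19 over the alternatives, with a highest adjusted p of 0.072. The groups of 2 libraries were too small for a test of outlying libraries.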

How the results depend on the processing

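No result changed direction past its threshold. With EC359 against vehicle, 0 members were called. DESeq2 and an adjusted p under 0.05 each called 1 (GABARAPL1), where 4.16% and 4.95% of all genes were called. No filter on low counts and a fit of the libraries compared each called 1 (CTSL1), where 3.06% and 1.86% were. Without the fold threshold the count was 4, where 7.82% of all genes passed. The count also varied with the library left out. Without the fold threshold the counts were 26 for vorinostat, 26 for the combination and 28 for the combination against EC359. Of all genes, 52.1%, 56.4% and 55.8% passed in these comparisons, so the member counts were near that background. The interaction count of 3 became 6 with DESeq2, 6 at an adjusted p under 0.05, 1 with RLE, 1 with total counts, 0 with an absolute interaction over 1 and 0 to 11 with each library left out. With a library left out its group held 1, which was assumed to vary like the others. The replicate number was also used as a block. Samples with the same number had correlated deviations of -0.17 to 0.23 and so share only a number. The block left 1 interaction call, where 1.38% of all genes were called. It left 4 of 5 calls between the combination and vorinostat (CTSK was lost), where 4.07% were. In the other comparisons, in the order above, it gave 0, 15, 16 and 17, where 3.44%, 29.3%, 34% and 33.1% of all genes were called. A crossed block, chosen after seeing the data, gave 6 interaction calls, where 3.48% of all genes were called, and 0, 15, 16, 5 and 17 otherwise. The share of gene counts without CTSB was also added after seeing the data. Of 4483 values for single genes, medians and shares, 4312 counted as the same, 55 were newly called, 101 were no longer called and 15 counted as moved. A single gene counted as the same where its call was unchanged and it kept its sign or shifted by less than its SE. A shift beyond the SE with the same sign was therefore not counted as moved. The shares without CTSB were counted as moved in any case. Depth limits TFEB, CTSK, ULK2 and GABARAPL1 most, and 2 libraries per group limit the interaction.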

Other observations

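PLTP, the phospholipid transfer protein gene that overlaps the CTSA locus on the opposite strand, was at 180.2 and 192 CPM with vehicle, 163 and 219 with EC359, 377 and 363 with vorinostat and 333 and 347 with the combination. Its log2 fold change with vorinostat was 0.99, beside 0.23 ± 0.08 for CTSA, and whether reads were counted by strand is not given in the sources used here, so reads of the overlap cannot be told apart. In the same libraries the mesenchymal markers moved in both directions, with mean VIM levels of 2111 CPM with vehicle and 9376 with the combination, and mean CAV1 levels of 2468 and 482.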
